A study of Rattus norvegicus with 12 samples.

Results

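The genes described here carry antigens to the surface of the cell: the rat major histocompatibility complex, called RT1, and the proteins that cut, transport and load its peptides. They were chosen by name from a table of 32883 rat genes: every symbol that begins with RT1-, together with B2m, Tap1, Tap2, Tapbp, Psmb8, Psmb9, Psmb10, Psme1, Psme2, Nlrc5, Cd74 and Ciita. Of 43 such genes, 31 of them RT1 genes, 30 had at least 10 counts in at least 3 libraries, and 28 of those could be tested after a filter on low counts. RNA came from primary ventricular cardiomyocytes of neonatal rats that had received an adenovirus for 2 days. The 4 groups of 3 libraries carried LacZ, a bacterial enzyme that served as the control cargo, or 1 of 3 forms of human KAT6A, a histone acetyltransferase: wild type (WT), K815R, in which arginine resists acetylation, and K815Q, in which glutamine mimics it. All 12 libraries therefore came from cells that had met an adenovirus, and no group without virus was analysed here. The labels do not say whether the libraries of a group are separate cultures, so the p-values measure only the spread between these libraries.

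An MHC class I molecule is a heavy chain, encoded by an RT1 class I gene, paired with the light chain beta-2-microglobulin. It shows CD8 T cells and natural killer cells peptides from proteins made inside the cell: the proteasome cuts them, the TAP transporter moves them into the endoplasmic reticulum, and tapasin helps to load them. Interferons raise most of these genes together, exchange the catalytic subunits of the proteasome for the immunoproteasome subunits, and raise NLRC5, which activates class I promoters. Class II molecules are pairs of alpha and beta chains that show peptides from outside the cell to CD4 T cells; they are a feature of dendritic cells, B cells and macrophages, depend on the transactivator CIITA and are accompanied by the invariant chain CD74. Heart muscle cells are known for little class I at rest.

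Levels are read counts scaled to library size after TMM normalization (CPM), and a gene was called where the adjusted p of edgeR's test, taken over all 14063 tested genes, was under 0.05. Gene counts ran from 19102048 to 25451686 per library, which puts 3 counts at 0.118 to 0.156 CPM. Counts hold only reads with 1 place in the genome, and 25.6% to 26.9% of reads had more than 1. RT1 copies share sequence, so the split of reads between copies is uncertain for every RT1 gene. Kat6a, which checks the labels, stood at 45.5, 45.2 and 53.6 CPM with LacZ, 90.8, 82.0 and 106 with WT, 102, 122 and 101 with K815R and 43.4, 49.97 and 45.7 in the K815Q-labelled libraries. It was not raised in the last group (log2 fold change -0.05, adjusted p 0.815 by edgeR), so every direction given for that group rests on its label alone. The cargo was human and reads were aligned to the rat genome. What part of the cargo the Kat6a values count is therefore not known. Cardiomyocyte markers summed to between 48378 and 54842 CPM, and all 11 were detected; the 14 macrophage markers, all detected, summed to between 89.4 and 133 CPM, and the 7 fibroblast markers to between 10587 and 12436.

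Genes at each tested step of the class I pathway, from the transactivator Nlrc5 to the heavy chains, fell in every KAT6A group. The class II genes and Cd74 gave 0 calls of 4 in each comparison with LacZ. In WT, K815R and the K815Q-labelled libraries, 5.34%, 2.47% and 7.85% of all tested genes were called in either direction, so 0 of 4 does not set class II apart. Against LacZ, 18 of 28 members fell in WT, where 3.39% of all tested genes were called lower. In K815R 15 of 28 fell, against 1.74% of all genes, and in the K815Q-labelled libraries 18 of 28 fell, against 4.98%. No member rose in any of these 3 comparisons, in which 1.95%, 0.74% and 2.87% of all genes did. The median log2 fold change over the 28 members was -0.70 in WT, -0.56 in K815R and -0.78 in the K815Q-labelled libraries, where the median over all tested genes was 0.01, 0.00 and 0.01. Every library of the KAT6A group lay below every LacZ library for 21, 22 and 22 members, while 12.3%, 9.6% and 14.5% of all tested genes did so. A joint test over the 4 groups called 20 of 28 members as different somewhere, and 8.13% of all genes. The 3 comparisons with LacZ share the LacZ libraries and are not independent of each other; 13 members were called lower in all of them, as were 1.13% of all tested genes. In a culture of mixed cells, fewer cells of a type and less RNA per cell cannot be told apart.

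Every call against LacZ was lower than LacZ, so a LacZ library was likely to be the highest for such members. For each of the 22 members called in at least 1 comparison with LacZ, the highest of all 12 libraries was LacZ replicate 2. No share over all genes was taken for LacZ replicate 2. Without it 16 members were called in WT, 12 in K815R and 16 in the K815Q-labelled libraries, against 2.65%, 1.3% and 2.93% of all genes, and 15, 10 and 16 of the original calls were kept. Whichever library of a comparison was left out, 13 of 18 calls were kept in WT, 5 of 15 in K815R and 13 of 18 in the K815Q-labelled libraries. The K815R count moved with its own libraries: 8, 6 and 8 members were called without K815R replicate 1, 2 and 3, against 1.21%, 1.86% and 1.38% of all genes. A fit of only the 6 libraries of LacZ and WT called 10 members and 4.85% of all genes. The WT calls lost in it were RT1-A1 (adjusted p 0.0809, edgeR), RT1-A2 (0.183), RT1-CE10 (0.141), RT1-M3-1 (0.0669), RT1-T24-3 (0.0866), RT1-T24-4 (0.0552), B2m (0.0685) and Tapbp (0.0582). The matching fit of K815R lost RT1-A1 (0.150), RT1-T24-3 (0.0777), B2m (0.0785), Psmb9 (0.13994) and Psme2 (0.0501), and that of the K815Q-labelled libraries lost RT1-A2 (0.0748), RT1-CE10 (0.0877), RT1-CE7 (0.0833) and RT1-N2 (0.0672). DESeq2 called 18, 15 and 18 members against LacZ, with 4.76%, 1.98% and 7.8% of all genes. These were not the same members throughout: DESeq2 did not call RT1-CE1 and RT1-M3-1 (adjusted p 0.153) in WT, RT1-N3 and RT1-T24-1 (0.104) in K815R, or RT1-N2 (0.116) in the K815Q-labelled libraries. DESeq2 instead called RT1-CE5 and RT1-CE7 in WT, RT1-CE7 and RT1-CE10 in K815R, and RT1-CE5 in the K815Q-labelled libraries. With no filter on low counts, B2m was not called in K815R (adjusted p 0.0718, edgeR).

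**Figure D1:**
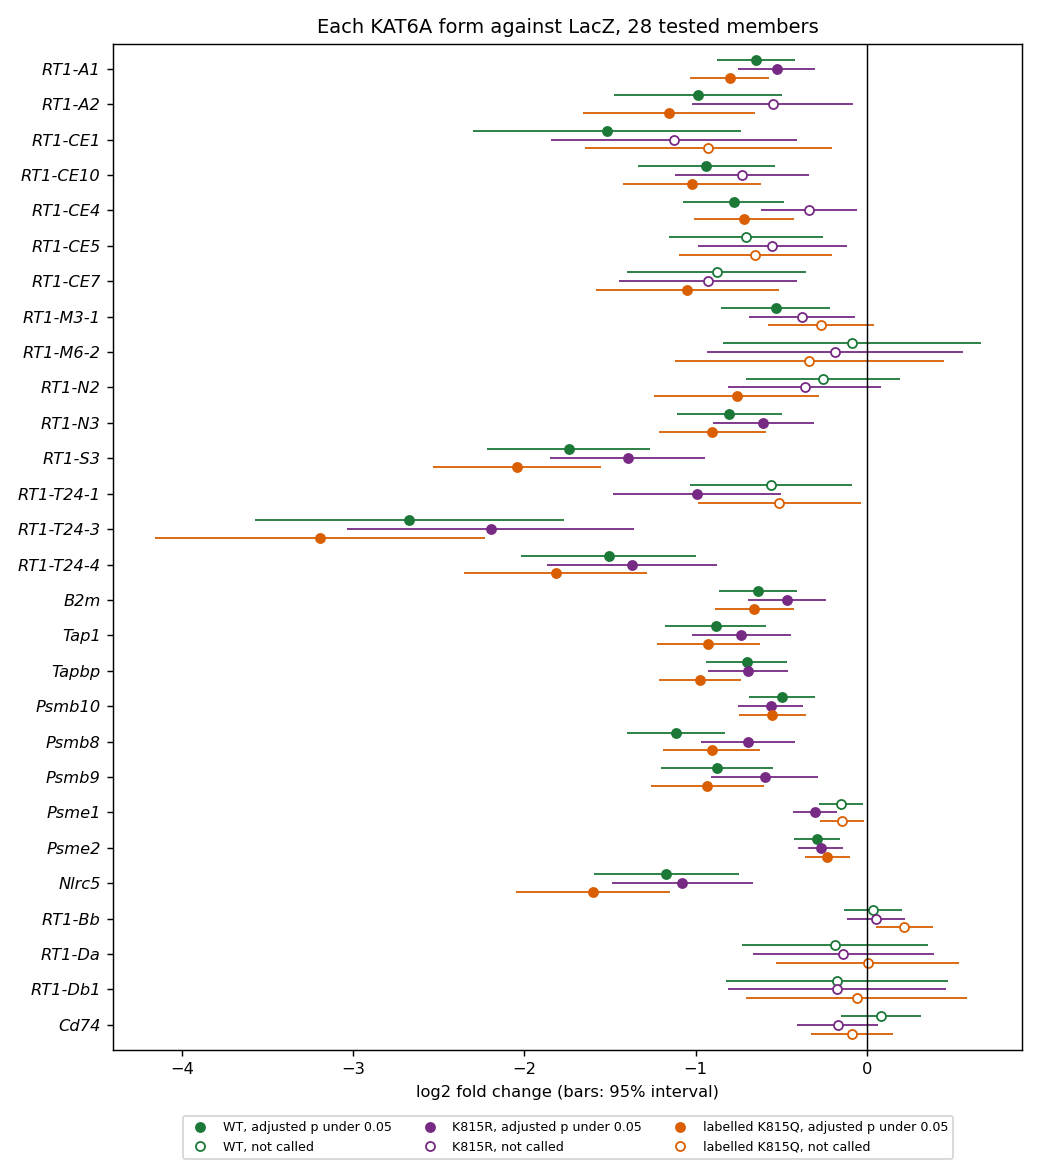
Log2 fold change against LacZ (horizontal axis) of the 28 tested members, ordered by role, in WT, K815R and the K815Q-labelled libraries. Points are the fitted change, bars its 95% interval, and filled points passed an adjusted p under 0.05 in edgeR's quasi-likelihood test; 18, 15 and 18 members are filled and all of them lie below 0, while the 3 class II genes and Cd74 at the bottom are open.

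Promoter sequence was set beside these values, since class I and class II genes are known for short shared elements upstream of their starts. RefSeq promoters of build GRCr8 matched 28 of the 30 members, and the 250 bases before each start were searched on both strands for 4 motifs. The core of the interferon-stimulated response element, 2 copies of GAAA with any 2 bases between them, lay in 7 members, against 3.41% of 33469 promoters. GAANNGAAA, the spacing of the class I interferon consensus, lay in 9, against 7.12%. Among them was Cd74, at 86 bases before the start, which was not called against LacZ. The motifs can overlap, and in Tapbp they do. GGGATTCCC, the kappaB core of class I enhancer A, lay in 4 class I heavy chains (RT1-A1, RT1-A2, RT1-CE10 and RT1-CE4), and in 91 promoters of the 33469, or 0.272%. CTGATTGG, the Y box, lay in all 4 class II promoters on the plus strand, in 4 class I promoters on the minus strand, and in 3.19% of all promoters. A match describes letters and not a bound factor. RT1-T24-3, RT1-T24-4, Nlrc5, Psmb8 and Psmb9, all called lower than LacZ, had no recorded match. RT1-CE1, RT1-CE7, RT1-M3-1, RT1-T24-1 and Psme1, each called in 1 comparison with LacZ, had no recorded match either. Promoters matched 15 of 16 class I heavy chains and 9 of 10 members outside the class I and class II chains. A gene with no recorded match may therefore not have been searched. Capitals mark the matches on either strand in the 9 windows of 200 bases below, which were picked among members with a match. These windows run 5′ to 3′ along each gene's strand. They lie at chr20:4907009-4907208 (plus strand), chr20:4872671-4872870 (plus strand), chr20:2675328-2675527 (plus strand), chr3:129549130-129549329 (plus strand), chr20:4668544-4668743 (minus strand), chr20:4967878-4968077 (minus strand), chr19:50743293-50743492 (minus strand), chr20:4604119-4604318 (minus strand) and chr20:4515215-4515414 (plus strand), in that order.
RT1-A1: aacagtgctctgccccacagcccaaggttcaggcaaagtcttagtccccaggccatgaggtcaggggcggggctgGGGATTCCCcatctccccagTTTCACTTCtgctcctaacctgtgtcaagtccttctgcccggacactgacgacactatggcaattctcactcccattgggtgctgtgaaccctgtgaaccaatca
RT1-A2: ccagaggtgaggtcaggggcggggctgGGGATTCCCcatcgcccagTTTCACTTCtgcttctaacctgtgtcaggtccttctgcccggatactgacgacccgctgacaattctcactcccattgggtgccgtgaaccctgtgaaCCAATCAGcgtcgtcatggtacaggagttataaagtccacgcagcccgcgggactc
RT1-S3: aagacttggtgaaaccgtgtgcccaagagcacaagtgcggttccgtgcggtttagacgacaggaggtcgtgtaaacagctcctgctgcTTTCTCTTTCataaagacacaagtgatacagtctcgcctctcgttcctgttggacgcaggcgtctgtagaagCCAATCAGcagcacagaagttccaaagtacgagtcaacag
B2m: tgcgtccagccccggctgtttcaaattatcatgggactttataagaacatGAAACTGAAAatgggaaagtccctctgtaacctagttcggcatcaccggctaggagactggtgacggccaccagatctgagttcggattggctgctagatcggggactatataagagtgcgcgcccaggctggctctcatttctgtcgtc
Tap1: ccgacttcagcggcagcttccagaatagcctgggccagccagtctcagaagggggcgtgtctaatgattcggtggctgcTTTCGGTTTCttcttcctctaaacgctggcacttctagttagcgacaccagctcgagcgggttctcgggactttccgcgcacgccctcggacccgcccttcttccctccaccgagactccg
Tapbp: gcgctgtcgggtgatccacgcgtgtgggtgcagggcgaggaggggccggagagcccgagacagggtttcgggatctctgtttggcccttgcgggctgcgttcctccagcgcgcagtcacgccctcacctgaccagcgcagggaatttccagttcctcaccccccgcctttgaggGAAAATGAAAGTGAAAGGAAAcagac
Psmb10: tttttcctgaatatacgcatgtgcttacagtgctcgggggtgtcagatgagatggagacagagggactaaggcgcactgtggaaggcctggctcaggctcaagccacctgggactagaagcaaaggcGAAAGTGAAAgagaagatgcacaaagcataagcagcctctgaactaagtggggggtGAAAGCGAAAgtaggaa
RT1-Bb: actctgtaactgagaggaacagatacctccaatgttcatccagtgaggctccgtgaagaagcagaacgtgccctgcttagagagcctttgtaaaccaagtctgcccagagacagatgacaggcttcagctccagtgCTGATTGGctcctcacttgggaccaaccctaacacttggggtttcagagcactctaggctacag
RT1-Da: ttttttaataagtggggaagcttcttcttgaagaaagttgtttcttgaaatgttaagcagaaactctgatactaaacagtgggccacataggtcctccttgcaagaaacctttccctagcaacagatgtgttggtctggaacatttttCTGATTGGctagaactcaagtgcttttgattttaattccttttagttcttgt

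RT1-A1 and RT1-A2 carry the same kappaB core, at 125 and 173 bases before the start, and downstream of it the same interferon consensus on the minus strand. RT1-S3 and B2m hold an interferon response core instead, on opposite strands, at 112 and 150 bases before the start. Tapbp holds a run of overlapping matches that begins 26 bases before its start, and Psmb10 holds 2 separate ones at 73 and 17 bases. RT1-Bb and RT1-Da hold only the Y box, at 64 and 52 bases.

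Nlrc5, the transactivator of class I genes, had enough counts to test. Its level was 2.85, 3.79 and 3.28 CPM with LacZ, 1.72, 1.03 and 1.62 with WT, 1.65, 1.42 and 1.63 with K815R and 0.936, 0.863 and 1.46 in the K815Q-labelled libraries. No KAT6A library reached the lowest LacZ library. Against LacZ, its log2 fold changes were -1.17 (SE 0.205), -1.08 (SE 0.199) and -1.60 (SE 0.218) in WT, K815R and the K815Q-labelled libraries, with adjusted p of 0.00106, 0.00334 and 6.8e-05 by edgeR. Each of these calls was kept whichever of the libraries compared was left out. Ciita, the class II transactivator, had at most 11 counts and lay just outside the limit on counts, with 10 or more in 2 libraries. Its counts were 7, 11 and 11 with LacZ, 4, 6 and 9 with WT, 2, 2 and 3 with K815R and 4, 5 and 1 in the K815Q-labelled libraries. Ciita was lower in the K815R and K815Q-labelled libraries than in every LacZ library, and was not tested.

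Class I heavy chains fell in every KAT6A group. Of 15 tested, 10 were called lower in WT, 6 in K815R and 10 in the K815Q-labelled libraries. The shares of all tested genes called lower were 3.39%, 1.74% and 4.98%. All 15 fitted changes were below 0 in each comparison, where 47.6%, 48.8% and 48.3% of all tested genes were. Summed over all 21 class I heavy chain genes, tested or not, LacZ libraries held 470 ± 106 CPM (SD, n = 3 in each group), WT libraries 266 ± 15.3, K815R libraries 298 ± 17.4 and the K815Q-labelled libraries 242 ± 1.95, or 56.6%, 63.5% and 51.4% of LacZ. A sum depends less on how reads were split between copies, and no test was made of it. RT1-A1 held between 57.1% and 68.7% of the counts in the sum, with no correction for gene length.

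RT1-A1 and RT1-A2 are the class Ia genes, the classical molecules that show peptides to CD8 T cells. RT1-A1 stood at 249.99, 338 and 243 CPM with LacZ, 183, 178 and 169.7 with WT, 203, 182 and 192 with K815R and 157, 161 and 158 in the K815Q-labelled libraries. The KAT6A libraries lay between 157 and 203 CPM, all below the lowest LacZ library. The fitted log2 changes were -0.65 (SE 0.104), -0.53 (SE 0.103) and -0.80 (SE 0.104) in WT, K815R and the K815Q-labelled libraries, with adjusted p of 0.00392, 0.0219 and 0.000985 by edgeR. The K815R call was lost without K815R replicate 1, K815R replicate 2 or K815R replicate 3 (adjusted p 0.0586 to 0.107). RT1-A2 stood at 15.5, 28.6 and 18.6 CPM with LacZ, 11.6, 8.42 and 11.5 with WT, 15.6, 13.5 and 13.7 with K815R and 8.84, 8.99 and 10.2 in the K815Q-labelled libraries. The WT libraries and the K815Q-labelled libraries lay below every LacZ library, while K815R overlapped LacZ. RT1-A2 fell, at -0.99 on the log2 scale in WT (adjusted p 0.0315, edgeR) and at -1.16 in the K815Q-labelled libraries (adjusted p 0.0154), and was not called in K815R at -0.55 (adjusted p 0.271). The WT call was lost without LacZ replicate 3, WT replicate 1, WT replicate 2 or WT replicate 3 (adjusted p 0.0551 to 0.116), and the call in the K815Q-labelled libraries without K815Q replicate 1 (adjusted p 0.0829).

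**Figure D2:**
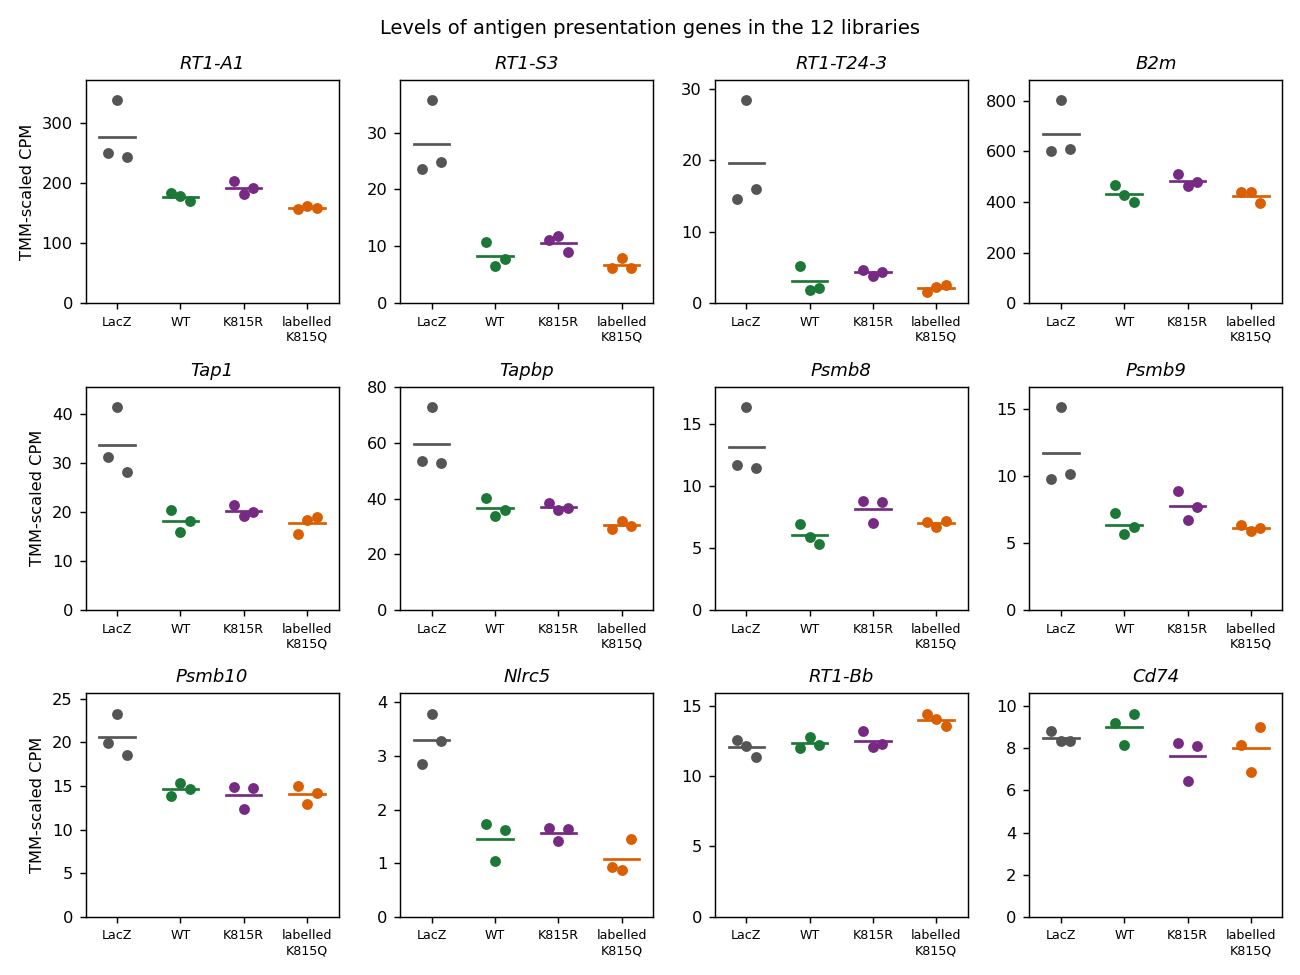
CPM in each of the 12 libraries (vertical axis, from 0, with its own scale in each panel) for 12 members, by group; points are libraries and bars the group mean. In the class I panels the LacZ points lie highest, with LacZ replicate 2 at the top, and in the RT1-Bb and Cd74 panels LacZ does not lie highest.

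RT1-S3 and the RT1-T24 genes are class Ib genes, non-classical relatives of the class Ia molecules. RT1-S3 is the rat relative of mouse Qa-1 and human HLA-E, which show leader peptides to receptors of natural killer cells. Its level was 23.7, 35.7 and 24.8 CPM with LacZ, 10.7, 6.56 and 7.84 with WT, 11.0, 11.9 and 8.95 with K815R and 6.13, 7.97 and 6.25 in the K815Q-labelled libraries. The highest KAT6A library was at 11.9 CPM and the lowest LacZ library at 23.7. Log2 fold changes were -1.74 (SE 0.212), -1.40 (SE 0.202) and -2.04 (SE 0.220), or 3.35-fold, 2.63-fold and 4.12-fold lower, with adjusted p of 0.00127, 0.00611 and 0.00061 by edgeR. These calls were kept whichever of the libraries compared was left out. RT1-T24-3 had the widest difference of the 28 members in each of the 3 comparisons with LacZ. It stood at 14.6, 28.4 and 15.9 CPM with LacZ, 5.22, 1.86 and 2.14 with WT, 4.69, 3.78 and 4.40 with K815R and 1.61, 2.29 and 2.501 in the K815Q-labelled libraries. All 9 KAT6A libraries lay below the lowest LacZ library. Its log2 fold changes were -2.67 (SE 0.393), -2.20 (SE 0.366) and -3.19 (SE 0.422), or 6.37-fold, 4.58-fold and 9.15-fold lower, with adjusted p of 0.00608, 0.0201 and 0.00351 by edgeR. The K815R call was lost without K815R replicate 1, K815R replicate 2 or K815R replicate 3 (adjusted p 0.0722 to 0.0814). RT1-T24-4 stood at 9.05, 16.0 and 10.2 CPM with LacZ, 5.12, 4.19 and 3.09 with WT, 4.53, 4.45 and 4.59 with K815R and 2.70, 4.21 and 3.02 in the K815Q-labelled libraries. LacZ libraries again lay above all KAT6A libraries. It was lower than LacZ, at -1.51, -1.37 and -1.82 on the log2 scale (adjusted p 0.00304, 0.00767 and 0.00110, edgeR), and the K815R call was lost without K815R replicate 1 or K815R replicate 2 (adjusted p 0.0512 to 0.0554). RT1-T24-1 stood at 1.47, 2.45 and 1.84 CPM with LacZ, 1.37, 0.930 and 1.57 with WT, 1.08, 0.828 and 0.999 with K815R and 1.25, 1.47 and 1.30 in the K815Q-labelled libraries. The K815R libraries lay below LacZ, while WT overlapped it. It was called in K815R alone, at -0.99 (adjusted p 0.0242, edgeR), and that call was lost without LacZ replicate 2, LacZ replicate 3, K815R replicate 1, K815R replicate 2 or K815R replicate 3 (adjusted p 0.0536 to 0.161). In WT and the K815Q-labelled libraries its changes were -0.56 and -0.51 and were not called.

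The RT1-CE genes are class Ib genes of the RT1-C/E region, a set of similar copies. RT1-CE10 stood at 35.7, 55.0 and 32.1 CPM with LacZ, 21.8, 20.7 and 21.6 with WT, 26.4, 23.9 and 23.8 with K815R and 20.7, 18.9 and 20.7 in the K815Q-labelled libraries. All 9 KAT6A libraries lay below all 3 LacZ libraries. It fell, at -0.94 in WT and at -1.02 in the K815Q-labelled libraries on the log2 scale (adjusted p 0.0156 and 0.00990, edgeR). In K815R the change of -0.73 was not called by edgeR (adjusted p 0.0685), while DESeq2 called it (adjusted p 3.07e-05). The WT call was lost without WT replicate 1, WT replicate 2 or WT replicate 3 (adjusted p 0.0536 to 0.0758), and the call in the K815Q-labelled libraries without K815Q replicate 1 (adjusted p 0.0519). RT1-CE4 stood at 20.8, 27.0 and 21.3 CPM with LacZ, 15.1, 12.9 and 12.2 with WT, 19.4, 15.8 and 19.7 with K815R and 15.9, 14.8 and 11.3 in the K815Q-labelled libraries. No KAT6A library reached LacZ. Against LacZ it fell, at -0.78 in WT and -0.72 in the K815Q-labelled libraries (adjusted p 0.00392 and 0.00651, edgeR), calls kept whichever library was left out. In K815R its libraries lay below but close to LacZ, at -0.34 (adjusted p 0.254). RT1-CE7 stood at 18.7, 32.7 and 21.3 CPM with LacZ, 14.2, 11.8 and 13.4 with WT, 13.9, 9.62 and 14.9 with K815R and 12.1, 10.5 and 12.5 in the K815Q-labelled libraries. The groups with KAT6A lay below LacZ without overlap. It was called in the K815Q-labelled libraries alone, at -1.05 (adjusted p 0.0320, edgeR), and lost that call without LacZ replicate 3, K815Q replicate 1, K815Q replicate 2 or K815Q replicate 3 (adjusted p 0.0642 to 0.116); WT and K815R gave -0.88 and -0.93. DESeq2 called RT1-CE7 in those groups too, with adjusted p of 0.00697 and 0.00929. RT1-CE1 stood near the floor, at 0.670, 1.11 and 0.697 CPM with LacZ, 0.406, 0.310 and 0.143 with WT, 0.309, 0.473 and 0.318 with K815R and 0.468, 0.508 and 0.313 in the K815Q-labelled libraries. LacZ libraries were the highest. It was called in WT alone, at -1.52 (adjusted p 0.0179, edgeR), and lost that call without LacZ replicate 2, WT replicate 2 or WT replicate 3 (adjusted p 0.0647 to 0.122) and in DESeq2 (adjusted p 0.101). RT1-CE5 stood at 6.37, 9.85 and 6.02 CPM with LacZ, 5.53, 3.98 and 4.09 with WT, 5.41, 5.04 and 4.68 with K815R and 5.77, 3.40 and 4.95 in the K815Q-labelled libraries. LacZ lay highest here too. RT1-CE5 was called nowhere, at -0.71, -0.55 and -0.65 (adjusted p 0.0688, 0.213 and 0.0724, edgeR), although DESeq2 called it in WT and in the K815Q-labelled libraries, with adjusted p of 0.0258 and 0.0353.

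RT1-N3 was the other class Ib gene that fell in every comparison with LacZ. It stood at 6.54, 8.51 and 5.78 CPM with LacZ, 4.46, 4.13 and 3.33 with WT, 4.69, 3.98 and 5.04 with K815R and 3.59, 3.91 and 3.60 in the K815Q-labelled libraries. No KAT6A library overlapped LacZ. Against LacZ, its log2 fold changes were -0.80, -0.60 and -0.90, with adjusted p of 0.00173, 0.0219 and 0.00065 by edgeR; the K815R call was lost without LacZ replicate 2, K815R replicate 1 or K815R replicate 2 (adjusted p 0.0603 to 0.175) and in DESeq2 (adjusted p 0.0552). RT1-N2 stood at 2.09, 2.58 and 1.31 CPM with LacZ, 1.93, 1.60 and 1.47 with WT, 1.60, 1.46 and 1.59 with K815R and 1.14, 1.22 and 1.15 in the K815Q-labelled libraries. WT and K815R overlapped LacZ, and the K815Q-labelled libraries lay below it. It was called in the K815Q-labelled libraries alone, at -0.76 (adjusted p 0.0460, edgeR), and lost that call without LacZ replicate 1, LacZ replicate 2, K815Q replicate 1, K815Q replicate 2 or K815Q replicate 3 (adjusted p 0.0751 to 0.226). RT1-M3-1, the relative of mouse H2-M3, which shows formylated peptides, stood at 3.39, 4.46 and 3.36 CPM with LacZ, 2.38, 2.43 and 2.90 with WT, 2.68, 3.11 and 2.77 with K815R and 2.96, 3.25 and 3.07 in the K815Q-labelled libraries. KAT6A libraries lay below LacZ in all groups. It was called in WT alone, at -0.53 (adjusted p 0.0440, edgeR), and lost that call without LacZ replicate 2, WT replicate 1 or WT replicate 2 (adjusted p 0.138 to 0.240). RT1-M6-2 had at most 16 counts in a library and was called nowhere, at -0.09, -0.19 and -0.34. RT1-CE3, just inside the limit with 10 or more counts in 3 libraries and at most 13, was not tested. The 5 other class Ib genes, RT1-M2, RT1-M4, RT1-M5, RT1-M6-1 and RT1-S2, reached at most 6 counts in any library.

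B2m encodes beta-2-microglobulin, the light chain that every class I molecule needs at the surface. It stood at 599.6, 803 and 608 CPM with LacZ, 468, 426 and 402 with WT, 511, 464 and 479 with K815R and 439.6, 439.6 and 396 in the K815Q-labelled libraries. The lowest LacZ library was at 599.6 CPM and the highest KAT6A library at 511. Group means were 670.1 ± 115 CPM with LacZ, 432 ± 33.4 with WT, 485 ± 23.9 with K815R and 425 ± 25.1 in the K815Q-labelled libraries (SD, n = 3 each). The fitted log2 changes were -0.63 (SE 0.104), -0.47 (SE 0.104) and -0.66 (SE 0.104), with adjusted p of 0.00452, 0.0387 and 0.00357 by edgeR. The K815R call was lost without K815R replicate 1, K815R replicate 2 or K815R replicate 3 (adjusted p 0.0916 to 0.149).

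Both tested loading genes of the selection, Tap1 and Tapbp, fell in every comparison with LacZ. Tap1, a subunit of the peptide transporter, stood at 31.1, 41.4 and 28.2 CPM with LacZ, 20.4, 15.8 and 18.2 with WT, 21.3, 19.2 and 20.03 with K815R and 15.5, 18.4 and 18.97 in the K815Q-labelled libraries. The LacZ libraries lay above the rest. Log2 fold changes were -0.88 (SE 0.137), -0.73 (SE 0.134) and -0.93 (SE 0.138), with adjusted p of 0.00246, 0.0119 and 0.00175 by edgeR, and the K815R call was lost without K815R replicate 1, K815R replicate 2 or K815R replicate 3 (adjusted p 0.0501 to 0.0709). Tapbp, which encodes tapasin, stood at 53.5, 73.0 and 52.7 CPM with LacZ, 40.3, 33.9 and 35.9 with WT, 38.4, 35.8 and 36.5 with K815R and 29.1, 31.9 and 30.2 in the K815Q-labelled libraries. Its highest KAT6A library was at 40.3 CPM and its lowest LacZ library at 52.7. Against LacZ, its log2 fold changes were -0.70 (SE 0.109), -0.70 (SE 0.108) and -0.97 (SE 0.111), with adjusted p of 0.00201, 0.00364 and 0.000171, and were kept whichever library compared was left out. The sum of Tap1, Tap2 and Tapbp was 58.7%, 61.2% and 51.5% of LacZ in WT, K815R and the K815Q-labelled libraries. Tap2, the other subunit of the transporter, had 29 counts over all 12 libraries, at most 5 in any, and was not tested. Of 12 tested partners in peptide trimming, folding and loading, 3, 2 and 2 were called lower and 0 higher, with list medians of -0.04, -0.01 and -0.03. Shares of all tested genes were 3.39%, 1.74% and 4.98% called lower and 1.95%, 0.74% and 2.87% called higher. Erap1, the aminopeptidase that trims peptides in the endoplasmic reticulum, stood at 54.4, 60.8 and 61.4 CPM with LacZ, 45.5, 45.3 and 43.9 with WT, 47.5, 47.7 and 47.6 with K815R and 41.6, 47.9 and 42.2 in the K815Q-labelled libraries. Erap1 fell, at -0.39, -0.31 and -0.42 on the log2 scale (adjusted p 0.00035, 0.00586 and 0.000162, edgeR). Tapbpl, a relative of tapasin that edits peptides, stood at 17.4, 16.98 and 16.3 CPM with LacZ, 15.1, 13.2 and 13.4 with WT, 14.1, 13.4 and 13.6 with K815R and 12.8, 12.3 and 13.0 in the K815Q-labelled libraries. No KAT6A library of either gene reached LacZ. Tapbpl fell, at -0.28, -0.30 and -0.41 (adjusted p 0.0323, 0.0340 and 0.00224, edgeR). The remaining call was Npepps in WT, at -0.23, a cytosolic aminopeptidase named after its value was seen.

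Of the 5 immunoproteasome genes, 4, 5 and 4 fell in WT, K815R and the K815Q-labelled libraries. Among all tested genes 3.39%, 1.74% and 4.98% were called lower. Psmb8, Psmb9 and Psmb10 encode its catalytic beta subunits. Psmb8 stood at 11.6, 16.4 and 11.4 CPM with LacZ, 6.95, 5.89 and 5.32 with WT, 8.76, 6.98 and 8.67 with K815R and 7.07, 6.70 and 7.19 in the K815Q-labelled libraries. All 9 KAT6A libraries lay below 11.4 CPM, the lowest LacZ value. The fitted log2 changes were -1.12 (SE 0.138), -0.69 (SE 0.131) and -0.91 (SE 0.136), with adjusted p of 5.77e-05, 0.00484 and 0.000333 by edgeR. Psmb8 kept its 3 calls whichever library was left out. Psmb9 stood at 9.76, 15.2 and 10.2 CPM with LacZ, 7.25, 5.68 and 6.18 with WT, 8.91, 6.74 and 7.67 with K815R and 6.34, 5.94 and 6.10 in the K815Q-labelled libraries. The gap to LacZ was narrowest in K815R. It was lower than LacZ, at -0.87, -0.60 and -0.93 on the log2 scale (adjusted p 0.00238, 0.0387 and 0.00143, edgeR), and the K815R call was lost without LacZ replicate 2, K815R replicate 2 or K815R replicate 3 (adjusted p 0.140 to 0.166). Psmb10 stood at 19.9, 23.3 and 18.6 CPM with LacZ, 13.8, 15.3 and 14.6 with WT, 14.8, 12.4 and 14.8 with K815R and 15.0, 12.9 and 14.2 in the K815Q-labelled libraries. The KAT6A groups lay close together and below LacZ. It fell, at -0.49, -0.56 and -0.55 (adjusted p 0.00209, 0.00105 and 0.000731, edgeR), calls kept whichever library was left out.

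Psmb5, Psmb6 and Psmb7, the constitutive subunits that these 3 replace, were not called with them. Their summed level was 371 ± 17.8 CPM in LacZ and 102%, 100.2% and 106% of that in WT, K815R and the K815Q-labelled libraries, while the sum of Psmb8, Psmb9 and Psmb10 was 59.5%, 65.8% and 59.8% of LacZ. Psmb5, Psmb6 and Psmb7 had fitted changes from -0.09 to 0.11. Over all tested genes, 5.34%, 2.47% and 7.85% were called against LacZ in WT, K815R and the K815Q-labelled libraries, in either direction. Of the 17 constitutive proteasome genes and regulators tested, 0 were called in WT and K815R and 1 in the K815Q-labelled libraries: Psme4, a proteasome activator named after its value was seen, at -0.24. Psme1 and Psme2 encode the alpha and beta subunits of the PA28 activator. Psme2 stood at 73.6, 80.9 and 69.0 CPM with LacZ, 62.3, 59.6 and 60.5 with WT, 66.8, 57.1 and 61.5 with K815R and 66.7, 59.8 and 63.8 in the K815Q-labelled libraries. KAT6A libraries lay below LacZ by a small margin. Against LacZ it fell, at -0.29, -0.27 and -0.23 (adjusted p 0.00718, 0.0219 and 0.0308, edgeR), smaller changes than those of the beta subunits. The Psme2 calls were lost without LacZ replicate 2 (adjusted p 0.0720) in WT, without LacZ replicate 2, K815R replicate 2 or K815R replicate 3 (adjusted p 0.0856 to 0.162) in K815R, and without LacZ replicate 2, K815Q replicate 1, K815Q replicate 2 or K815Q replicate 3 (adjusted p 0.0511 to 0.174) in the K815Q-labelled libraries. Psme1 stood at 34.7, 39.9 and 36.3 CPM with LacZ, 32.6, 34.3 and 33.0 with WT, 29.4, 30.7 and 29.7 with K815R and 33.8, 33.0 and 33.6 in the K815Q-labelled libraries. The K815R libraries were the lowest of all. It was called in K815R alone, at -0.30 (adjusted p 0.00733, edgeR), against -0.15 and -0.14 in the other groups, and lost that call without LacZ replicate 2 (adjusted p 0.0656).

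**Figure D3:**
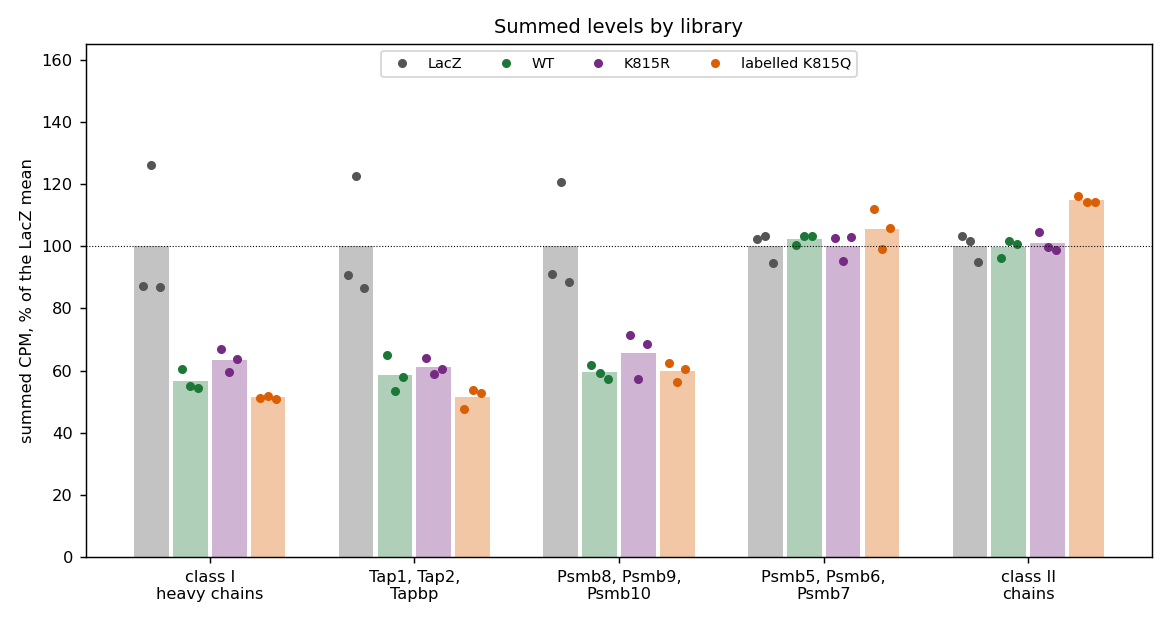
Summed CPM in each of the 12 libraries as a percentage of the LacZ mean (vertical axis, from 0) by group, for the 21 class I heavy chains, the loading genes Tap1, Tap2 and Tapbp, the immunoproteasome beta subunits Psmb8 to Psmb10, their constitutive counterparts Psmb5 to Psmb7, and the 10 class II chains; bars are group means, points libraries, the dotted line the LacZ mean, and no test was made. The KAT6A groups lie at 51.4% to 65.8% of LacZ in the first 3 sums and at 99.6% to 115% in the last 2.

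No class II gene and not Cd74 was called in any comparison with LacZ, with 0 of 4 in each by edgeR and 0 in each by DESeq2. By edgeR, 5.34%, 2.47% and 7.85% of all genes were called in either direction, so 0 of 4 does not set these genes apart. At an unadjusted p under 0.05 there were 0, 0 and 1 of the 4, with 19.1%, 13.8% and 24.2% of all genes. RT1-Bb, a class II beta chain, stood at 12.6, 12.2 and 11.4 CPM with LacZ, 12.0, 12.8 and 12.2 with WT, 13.2, 12.1 and 12.3 with K815R and 14.5, 14.1 and 13.5 in the K815Q-labelled libraries. The libraries labelled K815Q lay above all 9 others, at a log2 fold change of 0.22 against LacZ (95% interval 0.05 to 0.39, adjusted p 0.0961 by edgeR). In WT and K815R it was at 0.03 and 0.05, with intervals of -0.13 to 0.20 and -0.11 to 0.22. Cd74, the invariant chain, stood at 8.84, 8.33 and 8.36 CPM with LacZ, 9.18, 8.17 and 9.65 with WT, 8.24, 6.46 and 8.13 with K815R and 8.16, 6.86 and 9.01 in the K815Q-labelled libraries. The K815R libraries lay just below LacZ, and the other groups overlapped it, with changes of 0.08, -0.17 and -0.09 and intervals of -0.15 to 0.32, -0.41 to 0.07 and -0.33 to 0.15. RT1-Da, a class II alpha chain, and RT1-Db1, a beta chain, had group means under 1 CPM, at most 25 and 22 counts in a library, and changes of -0.19, -0.14 and 0.01 and of -0.18, -0.18 and -0.06. Their intervals were wide: -0.73 to 0.36, -0.67 to 0.39 and -0.53 to 0.54 for RT1-Da. For RT1-Db1 they were -0.83 to 0.47, -0.81 to 0.46 and -0.70 to 0.58. RT1-Ba was just inside the limit, with at most 12 counts, and was not tested. The 6 other class II genes, RT1-Db2, RT1-DMa, RT1-DMb, RT1-DOa, RT1-DOb and RT1-Ha, reached at most 8 counts in any library, and RT1-DMa and RT1-Ha had 0 in all 12. In the sum of all 10 class II chains the level was 14.3 ± 0.630 CPM in LacZ (SD, n = 3) and 99.6%, 101% and 115% of it in WT, K815R and the K815Q-labelled libraries.

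Cells that carry class II were examined by their markers. The 14 macrophage and monocyte markers summed to 89.4 to 116 CPM with LacZ, 114 to 122 with WT, 118 to 128 with K815R and 122 to 133 in the K815Q-labelled libraries. Lyz2, the macrophage lysozyme, rose in all 3 comparisons with LacZ (log2 fold change 0.33, 0.33 and 0.48, adjusted p 0.0173, 0.0283 and 0.000714, edgeR). In the K815Q-labelled libraries Fcer1g also rose, at 0.50, and Adgre1 fell, at -0.54. The dendritic cell markers, 7 rows of which 3 stayed under 10 counts, summed to 10.6 to 12.5, 11.6 to 12.6, 10.6 to 12.9 and 10.0 to 11.7 CPM. All 4 B cell markers stayed under 10 counts, with Ms4a1 at 0, as did 5 of 7 T and NK cell markers. The part of these cells in the class II levels was not tested. Over all tested genes, 1.95%, 0.74% and 2.87% were called higher than LacZ in WT, K815R and the K815Q-labelled libraries. Of 9 tested genes of the class II endosomal pathway, 0 were called in K815R and 1 was called higher in WT and 1 in the K815Q-labelled libraries: Ifi30 at 0.22 and Cst3 at 0.20, both named after their values were seen.

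In the RefSeq gene order of GRCr8, RT1-Bb, RT1-DOb, Tap2, Psmb8, Tap1, Psmb9, RT1-DMb and RT1-DMa are neighbours. Within this stretch Psmb8, Tap1 and Psmb9 fell in all 3 comparisons with LacZ, RT1-Bb was not called, and the 4 others had at most 8 counts. Tap1 and Psmb9 lie head to head on opposite strands, and their promoter windows in the RefSeq table, 300 bases each, share 44 bases. The strand setting of the counting is not known, so reads of overlapping genes in so dense a stretch cannot be told apart with certainty.

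**Figure D4:**
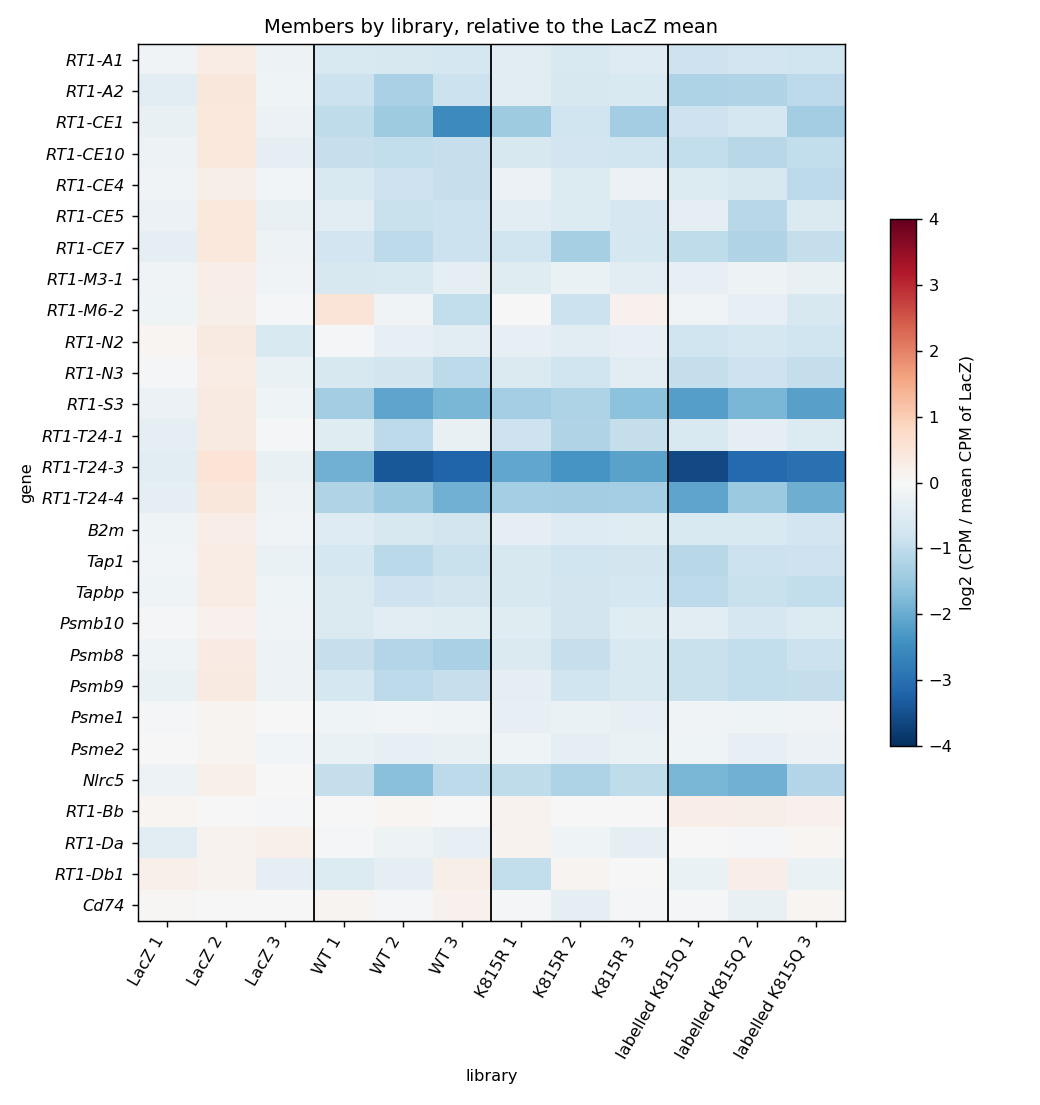
Log2 of each library's CPM over the LacZ mean (colour, from -4 to 4) for the 28 tested members in rows and the 12 libraries in columns, by group. Most class I rows are lower in all 3 KAT6A groups (RT1-M6-2 overlaps LacZ), LacZ replicate 2 is higher than the other LacZ libraries in the same rows, and the class II rows at the bottom overlap between LacZ and WT.

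The regulators that act on these promoters were examined as a list. For this list and those below, 3.39%, 1.74% and 4.98% of all tested genes were called lower than LacZ. In the same order of WT, K815R and the K815Q-labelled libraries, 1.95%, 0.74% and 2.87% were called higher. Of 10 tested MHC transcription factors, 1 was called lower in WT and 0 in K815R and in the K815Q-labelled libraries, with medians of -0.03, 0.01 and 0.03. The call was Irf1, an interferon-induced activator of class I promoters, at -0.35, -0.32 and -0.16 (adjusted p 0.0265, 0.0698 and 0.291, edgeR), named after its value was seen. The 9 others, among them subunits of the RFX and NF-Y factors that bind class I and class II promoters, were not called. Of 14 tested interferon receptors and signalling genes, 5, 4 and 5 were called lower and 0 higher, with medians of -0.19, -0.12 and -0.16. Irf7, the interferon-induced regulator of interferon genes, stood at 75.0, 153 and 81.9 CPM with LacZ, 22.7, 9.30 and 11.1 with WT, 29.3, 20.1 and 19.9 with K815R and 9.56, 12.5 and 11.0 in the K815Q-labelled libraries. All 9 KAT6A libraries lay below every LacZ library. It was lower than LacZ, at -2.84, -2.17 and -3.23 on the log2 scale (adjusted p 0.00498, 0.0238 and 0.00313, edgeR). Usp18, a brake on the interferon receptor, fell, at -2.86, -2.06 and -3.18 (adjusted p 0.00475, 0.0256 and 0.00325, edgeR). Stat2 and Irf9, partners in the factor that binds interferon response elements, fell, at -1.20, -0.89 and -1.22 and at -0.72, -0.67 and -0.91, with adjusted p from 6.71e-07 to 0.00282 by edgeR. LacZ replicate 2, highest for the called members, was also highest for Irf7, at 153 CPM. The part of interferon signalling in the class I values was not tested. Of 5 tested class I-like molecules outside RT1, 0 were called in WT, 1 lower in K815R (Cd1d1, -0.26) and 1 higher in the K815Q-labelled libraries (Fcgrt, 0.23), both named after their values were seen.

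The KAT6A forms were compared with each other directly. The groups also differed in Kat6a reads, which were aligned to the rat genome. The K815Q-labelled libraries were lower than WT (log2 fold change -1.01, adjusted p 0.00148 by edgeR). K815R was higher than the K815Q-labelled libraries (1.22, adjusted p 0.000353 by edgeR), while K815R and WT differed by 0.22 (adjusted p 0.388). In both comparisons with the K815Q-labelled libraries, the form of KAT6A and the level of Kat6a reads cannot be told apart. No member was called in K815R against WT, where 2.2% of all genes were, in the K815Q-labelled libraries against WT (1.07%), or in K815R against the K815Q-labelled libraries (0.363%). At an unadjusted p under 0.05 there were 4, 3 and 7 members of 28, against 13.8%, 14.4% and 11.4% of all genes, and DESeq2 also called 0 in each, with 2.21%, 1.36% and 0.771% of all genes. The medians over the members were 0.13, -0.06 and 0.19. Among the 13 members called in all 3 comparisons with LacZ, the K815R mean was the highest of the KAT6A groups in 11, and the mean of the K815Q-labelled libraries was the lowest in 10, as a description of group means. For RT1-S3 the difference of K815R from the K815Q-labelled libraries was 0.65 with a 95% interval of 0.11 to 1.18 (adjusted p 0.356, edgeR). For RT1-A1 it was 0.27 (0.04 to 0.50), for RT1-A2 0.61 (0.09 to 1.13) and for Nlrc5 0.52 (0.01 to 1.03). For RT1-T24-3 the interval ran from -0.17 to 2.17 around 1.00. Against WT, K815R was at 0.42 for Psmb8 (0.11 to 0.73, adjusted p 0.167, edgeR) and at 0.44 for RT1-CE4 (0.14 to 0.74, adjusted p 0.143). Psme1 was the member in which every K815R library lay below every library of both other forms, at -0.15 against WT and -0.16 against the K815Q-labelled libraries. RT1-T24-1 and RT1-Bb lay so against the K815Q-labelled libraries alone. The other way, K815R lay above both other forms for RT1-A2 and RT1-CE10, and above WT alone for RT1-CE4 and Psmb8. It lay above the K815Q-labelled libraries alone for RT1-A1, RT1-N2, RT1-N3, RT1-S3, RT1-T24-3, RT1-T24-4, B2m, Tap1, Tapbp and Psmb9. All genes lay below in 9.48% and 7.69%, and no share above was taken. For B2m the intervals were -0.06 to 0.40, -0.25 to 0.21 and -0.04 to 0.42. These intervals hold differences of the sizes they name, so the forms are not shown to act alike.

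Fits of only the 6 libraries compared called RT1-CE4 in K815R against WT (0.45, adjusted p 0.0369, edgeR) and 4 members in K815R against the K815Q-labelled libraries: RT1-A1 (0.27, 0.0251), RT1-A2 (0.60, 0.00789), RT1-S3 (0.64, 0.0285) and RT1-T24-3 (1.00, 0.0134), each higher in K815R, where such fits called 1.99% and 0.62% of all genes. With no filter on low counts, Psmb8 (0.43, adjusted p 0.0181) and RT1-CE4 (0.45, adjusted p 0.0116) were called in K815R against WT, with 2.46% of all genes.

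**Figure D5:**
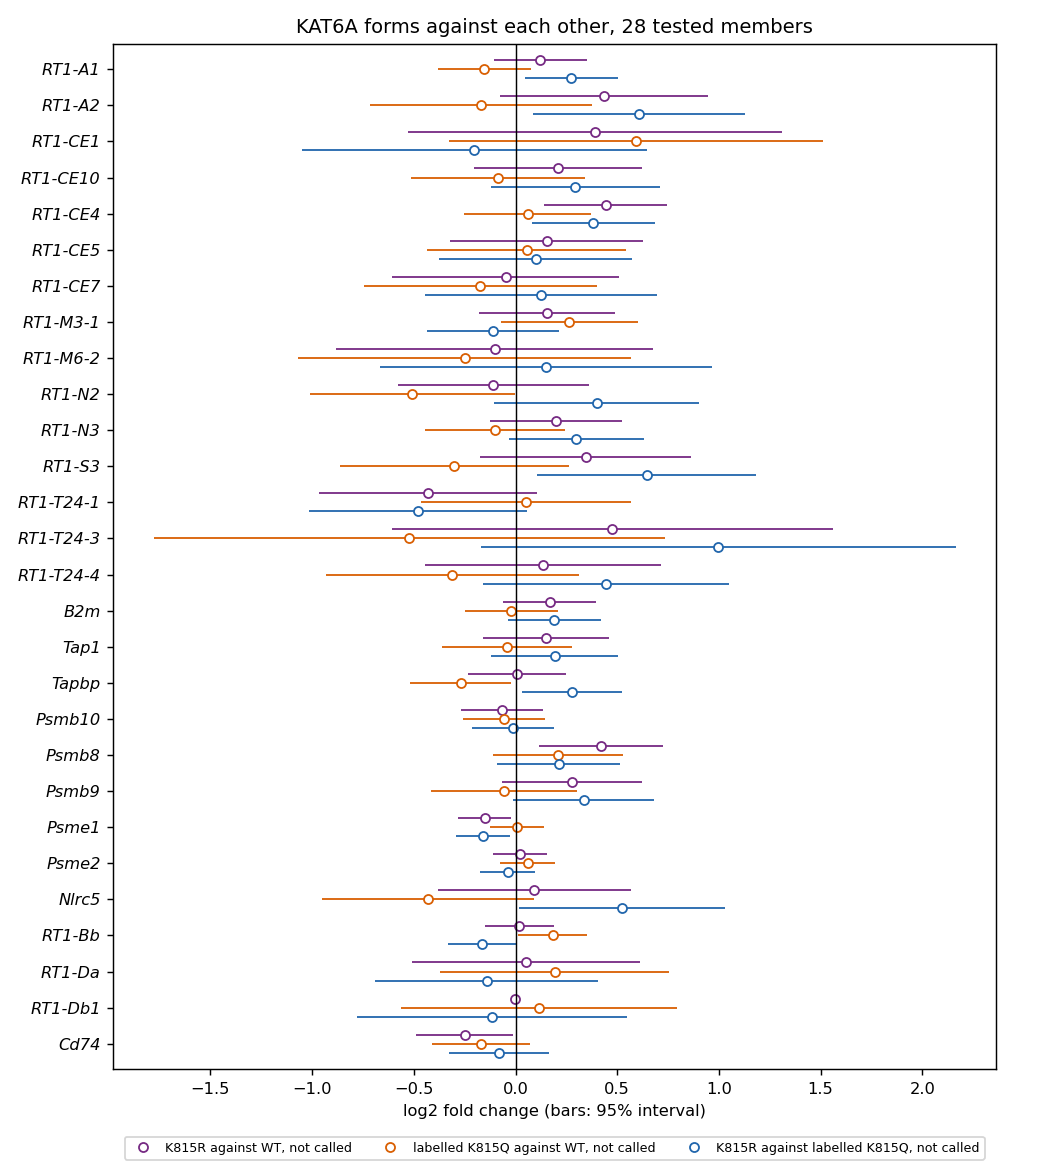
Log2 fold change (horizontal axis) of the 28 tested members between the KAT6A forms, with bars for the 95% interval: K815R against WT, the K815Q-labelled libraries against WT, and K815R against the K815Q-labelled libraries. All points are open, since 0 of 28 were called in each comparison; RT1-Db1 has no interval in K815R against WT, where its fitted change was 0.00.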

How the data were processed

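RNA of 12 libraries was analysed as raw read counts per gene. The authors deposited 1 table of whole-number counts for 32883 genes; its 5 counter lines, which name no gene, stayed out of library sizes. Of all reads, 11.7% to 12.9% lay in no feature, 25.6% to 26.9% were not unique, 0.461% to 0.50% were ambiguous and 2.69% to 3.06% did not align. Per the submitters' processing notes, Trimmomatic 0.39, HISAT2 2.2.1, HTSeq 0.6.1, edgeR and the build Rnor_6.0 were used; the strand setting and annotation release are not given in the sources used here. Replicates differed by more than sampling noise (chi-square per degree of freedom 4.54 to 8.74).

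Differences were fitted here with edgeR 4.0.16 in R 4.3.3: TMM scaling, filterByExpr (minimum count 10, minimum total 15), 1 model of 4 group means over 12 libraries, the robust quasi-likelihood test, and Benjamini-Hochberg adjustment over 14063 genes, with calls under 0.05. Intervals are 95%. The procedure was tested on simulated data. Promoters are RefSeq's, build GRCr8. The comparisons were each KAT6A group with LacZ, the forms with each other, and a test for any difference. Alternatives tried were DESeq2 1.42.0, upper-quartile and RLE scaling, no filter or a minimum of 10 counts throughout, a replicate block, separate fits for each pair of groups, and each library left out. At this depth 3 counts are 0.118 to 0.156 CPM.

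Members, gene lists and motifs were chosen with earlier results of these data known. Named with a value in every library were the genes outside RT1 that passed the limit on counts, and RT1 genes called in any comparison or with a mean of 5 CPM in any group; of the lists, genes called in at least 2 comparisons with LacZ, at most 4 a list, and Psmb5, Psmb6 and Psmb7 were named.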

Additional observations from a re-analysis of the deposited data

How the results depend on the processing

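No call against LacZ changed direction in any alternative run. Members called in WT, K815R and the K815Q-labelled libraries against LacZ numbered 18, 15 and 18 under RLE scaling, upper-quartile scaling and DESeq2, 19, 14 and 19 with no filter, and 17, 15 and 18 of 25 with 10 counts in every library. Fits of only the 6 libraries compared called 10, 10 and 14, and 0, 1 and 4 between the forms (K815Q-labelled against WT, K815R against WT, K815R against K815Q-labelled). No filter on low counts gave 2 in K815R against WT. Leaving out each library gave 14 to 19 in WT, 6 to 17 in K815R, 13 to 17 in the K815Q-labelled libraries, 0 to 0 between the forms and 15 to 20 for any difference. The lowest counts against LacZ came with 2.66%, 1.86% and 2.52% of all genes. Without LacZ replicate 1, where counts were highest, 4.49%, 2.16% and 8.3% were called. The 17 in the K815Q-labelled libraries without LacZ replicate 3 came with 3.56%. Counts in this section with no share of all genes given cannot be set beside one. The cause was not tested.

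The replicate numbers did not pair the libraries: correlations of deviations ran from -0.13 to 0.12, 1 of 18 was over 0.1, and 4 of 12 libraries correlated best with their own number. With the replicate block, 17, 14 and 17 members were called against LacZ, 0 between the forms, and 17 for any difference. Its lost calls were RT1-A2 in WT, Psmb9 in K815R and RT1-CE7 in the K815Q-labelled libraries.

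Members near 0 that were called nowhere changed sign against LacZ as single libraries were left out. Their ranges were -0.507 to 0.229 for RT1-M6-2 and -0.00805 to 0.0680 for RT1-Bb in WT, -0.400 to 0.0893 for RT1-M6-2 and -0.367 to 0.0628 for RT1-Db1 in K815R, and -0.164 to 0.121 for RT1-Da, -0.253 to 0.0463 for RT1-Db1 and -0.182 to 0.0124 for Cd74 in the K815Q-labelled libraries. RT1-Da in the K815Q-labelled libraries also gave -0.00120 with no filter. Depth limits RT1-CE1, RT1-Da, RT1-Db1 and RT1-M6-2, whose group means lay near or under 1 CPM.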

Other observations

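RT1-DMb, which encodes a chain of the class II peptide editor, had 8 counts in K815Q replicate 3 and 0 in the 11 other libraries. Fibroblast markers, of which 7 were tested, included Pdgfra at -0.36 in WT against LacZ and at 0.54 in K815R against WT, and Tcf21 at 0.53 in the K815Q-labelled libraries against LacZ, each with an adjusted p under 0.05 by edgeR. Among cardiomyocyte markers, Myh7, the slow myosin heavy chain, was higher in K815R than in WT (log2 fold change 0.37, adjusted p 0.0388, edgeR) and than in the K815Q-labelled libraries (0.48, adjusted p 0.0281), and Pln, the calcium pump regulator, was higher than LacZ in WT (0.22) and in the K815Q-labelled libraries (0.24). The 5 endothelial markers were not called in any of the 6 comparisons.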
